A study of Rattus norvegicus with 30 samples.

Results

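Glucocorticoid hormones act on the heart through corticoid receptors, and the genes Sgk1, Fkbp5, Tsc22d3 and Zbtb16 are widely used readouts of that signalling, while Nr3c1 and Nr3c2 encode the receptors themselves. These 6 genes, chosen with earlier results of these data known, were followed in hearts of male Crl:WI(Han) rats given isoproterenol or vehicle. They were measured by every probe set whose annotated symbol is 1 of the 6 names. That gave 7 probe sets for 5 genes among 31099 probe sets in all, and all 7 were among the 24292 that passed the filter on dim signals. Zbtb16 had no probe set in the annotation used and was not analysed here. Sgk1, Tsc22d3 and Nr3c2 each had 1 probe set (1367802_at, 1367771_at and 1368476_at). Fkbp5 had 1380611_at and 1388901_at, and Nr3c1 had 1368221_at and 1368222_at.

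The hearts were collected 1, 3, 24 and 72 h after dosing with isoproterenol, a drug that stimulates beta-adrenergic receptors, or with vehicle. Isoproterenol was labelled at 0.5 mg/kg/ml, a unit that leaves the dose per body weight unsettled, and vehicle at 0. There were 5, 4, 4 and 5 isoproterenol arrays at 1, 3, 24 and 72 h, and 3 vehicle arrays at each time. The sample labels give 72 h as the last time, whereas the design text gives 48 h, and the labels were followed. No genotype beyond the strain is labelled, and the sources used here do not give the age of the rats. Each array is titled a biological replicate, and nothing says whether each came from its own animal, so p-values may reflect technical spread alone. Below, a heart stands for the sample on 1 array.

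In its resting state the glucocorticoid receptor, encoded by Nr3c1, sits in the cytoplasm in a complex with heat shock proteins and FK506-binding immunophilins. Hormone releases it to the nucleus, where it binds palindromic response elements and raises or lowers transcription. The mineralocorticoid receptor, encoded by Nr3c2, binds the same hormones and much the same DNA, and in cardiomyocytes it is largely exposed to glucocorticoids. Fkbp5 is the immunophilin FKBP51, a target gene that lowers the receptor's affinity for hormone. Sgk1 is a serine/threonine kinase that controls ion channels and cell survival, and it also answers to growth factors, osmotic stress and cAMP. Tsc22d3 encodes GILZ, a leucine zipper protein that restrains inflammatory transcription factors.

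RefSeq promoter windows of assembly GRCr8, 250 bases before to 50 bases after an annotated start, were available for 4 of the genes, 9 windows in all, with none matched for Nr3c2. They are shown for the 3 target genes so that the response element letters can be looked for beside the expression values, for the most downstream annotated start of each gene. Capitals mark a TATA box (TATAAA, sense strand only) and cAMP response element half-sites (TGACG, either strand). The Sgk1 window is chr1:24804782-24805081, the Fkbp5 window chr20:6543506-6543805 and the Tsc22d3 window chrX:109009985-109010284, all on the minus strand and written 5′ to 3′.
Sgk1: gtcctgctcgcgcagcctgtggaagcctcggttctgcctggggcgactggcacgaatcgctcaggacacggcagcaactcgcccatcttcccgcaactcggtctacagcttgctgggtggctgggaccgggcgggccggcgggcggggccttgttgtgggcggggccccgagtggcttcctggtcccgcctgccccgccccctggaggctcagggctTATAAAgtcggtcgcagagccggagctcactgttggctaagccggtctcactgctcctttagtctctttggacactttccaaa
Fkbp5: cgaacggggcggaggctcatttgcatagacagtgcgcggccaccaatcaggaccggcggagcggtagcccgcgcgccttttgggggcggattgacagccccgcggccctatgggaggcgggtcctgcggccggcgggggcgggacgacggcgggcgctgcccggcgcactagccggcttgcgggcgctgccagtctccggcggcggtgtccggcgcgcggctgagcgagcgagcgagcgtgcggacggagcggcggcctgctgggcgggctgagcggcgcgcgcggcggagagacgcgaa
Tsc22d3: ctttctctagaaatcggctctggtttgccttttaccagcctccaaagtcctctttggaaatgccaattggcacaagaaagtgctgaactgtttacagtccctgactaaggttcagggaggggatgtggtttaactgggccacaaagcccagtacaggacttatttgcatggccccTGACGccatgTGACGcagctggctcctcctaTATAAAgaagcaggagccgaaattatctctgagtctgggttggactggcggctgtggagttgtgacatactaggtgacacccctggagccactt

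The TATA box of the Sgk1 window began 33 bases before the start, and that of the Tsc22d3 window began 44 bases before it. TATAAA occurred in 8.8% of 33469 windows of the same length. The 2 TGACG half-sites of the Tsc22d3 window began 75 and 65 bases before the start, and 21.2% of windows held this motif on either strand. The glucocorticoid response element half-site TGTTCT, searched on both strands, was in none of the 9 windows, against 20.7% of all windows. The full palindrome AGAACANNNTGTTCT, which contains that half-site on each strand, occurred in 0.0149% of windows and in none of the 9. The cAMP response element TGACGTCA, which contains the TGACG half-site, was in none of the 9 and in 1.83% of all windows. These counts say only which letters stand in these windows.

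Expression values are log2(intensity + 16) after quantile normalization, which gives every array the same distribution. A fold change is 2 to the power of a difference on this scale, understates changes of dim probe sets, and is relative to the bulk of the array. Changes were tested with limma, fitted to all 24292 probe sets and 8 groups, with the Benjamini-Hochberg adjusted p held to 0.05. Values after ± are standard errors of a log2 difference unless SD is written.

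Deposited array medians ran from 21.2 to 70.4 in intensity, a 3.32-fold range, and the number of arrays limits the precision. Cardiomyocyte markers were high on every array, with a mean over 7 genes of 12.81 to 13.12 in isoproterenol hearts and 13.07 to 13.15 in vehicle hearts, which matches the labelled tissue. Isoproterenol arrays are numbered 33 to 62 and vehicle arrays 4 to 21, so treatment and array order cannot be told apart. Array numbers also follow time within each treatment.

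Among the 7 probe sets, isoproterenol changed none at 1 h, raised 3 at 3 h, raised 1 and lowered 1 at 24 h, and changed none at 72 h. Over all tested probe sets, 1.83% were higher and 0.815% lower at 1 h. At 3 h 6.11% were higher and 5.28% lower. At 24 h 7.33% were higher and 5.7% lower, and at 72 h 9.37% were higher and 8.56% lower. In limma, an unadjusted p under 0.05 was reached by 2 of the 7 at 1 h and by 1 of the 7 at 72 h. When arrays were centred on their medians in place of quantile normalization, the numbers higher and lower over all probe sets became 1290 and 628 at 3 h, 1668 and 780 at 24 h and 2353 and 709 at 72 h, against 1484 and 1282, 1781 and 1384, and 2275 and 2079 after quantile normalization. Without normalization they were 295 and 183 at 3 h, 3078 and 17 at 24 h and 2351 and 29 at 72 h, where the median of all probe sets shifted by -0.19, 0.47 and 0.36. The direction of changes at 24 and 72 h is therefore relative to the scaling.

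Sgk1 gave the largest difference of the 7 probe sets at 3 h. Its values were 10.49, 10.41, 10.14 and 10.64 in isoproterenol hearts, against 7.36, 7.94 and 7.69 in vehicle hearts. Every isoproterenol heart lay above every vehicle heart, and the gap between the groups was wider than the spread within either. The means were 10.42 ± 0.21 and 7.66 ± 0.29 (SD, n = 4 and 3), a log2 change of 2.76 ± 0.24, 6.77-fold higher, with a limma adjusted p of 5.79e-10. Leaving out any 1 array of either group kept the change between 2.61 and 2.90. At the same time, when 6.11% of all probe sets were higher, neutrophil markers rose. Of 5 tested, 3 rose at 3 h (S100a8, S100a9 and Il1r2), and the list mean ran from 6.02 to 6.62 in isoproterenol hearts and from 4.81 to 5.11, under the filter level, in vehicle hearts. Their part in the Sgk1 result was not tested. In whole tissue, fewer cells of a type and less RNA per cell cannot be told apart.

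At 1 h Sgk1 was already high in isoproterenol hearts, at 9.57, 10.31, 10.11, 9.84 and 10.13, but vehicle hearts were also high, at 9.88, 9.39 and 8.44. The groups overlapped through the highest vehicle heart. The change of 0.75 ± 0.22 did not pass in limma, with an adjusted p of 0.0701. It was 1.07 with an adjusted p of 0.00744 without vehicle replicate 1, and 0.86 with an adjusted p of 0.0393 without isoproterenol replicate 1. Without vehicle replicate 3, the lowest vehicle heart, it was 0.36 with an adjusted p of 0.656, and without normalization 0.53 with an adjusted p of 0.760. Weighting arrays by their quality gave 0.85 with an adjusted p of 0.0113.

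By 24 h Sgk1 had values of 8.72, 9.21, 8.65 and 8.76 in isoproterenol hearts, against 8.35, 8.37 and 7.98 in vehicle hearts. The isoproterenol hearts all lay above the vehicle hearts, yet the change of 0.60 ± 0.24 did not pass (limma adjusted p = 0.0947). Without normalization it was 1.22 with an adjusted p of 0.0344. At 72 h the isoproterenol values of 8.33, 8.64, 8.45, 8.47 and 9.11 overlapped the vehicle values of 8.50, 8.11 and 8.12. The change was 0.36, with a 95% interval of -0.10 to 0.82 and a limma adjusted p of 0.304.

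**Figure D1:**
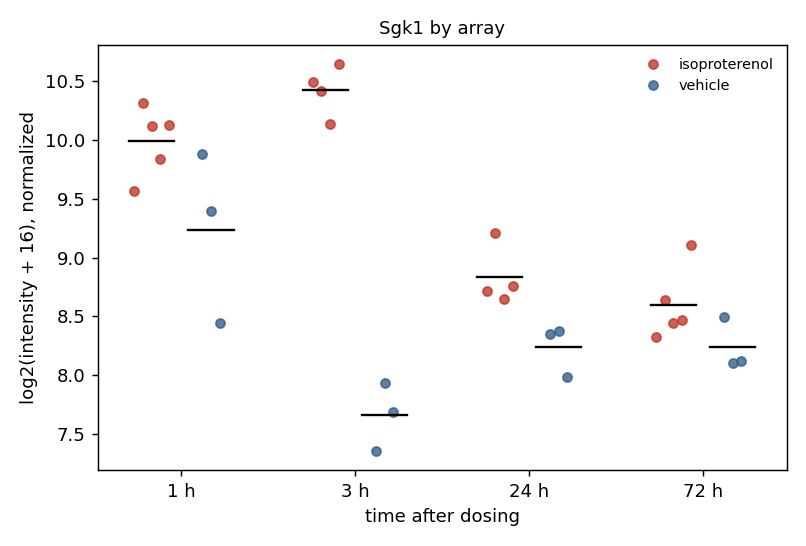
Sgk1 in every array, as log2(intensity + 16) after quantile normalization on the y axis and time after dosing on the x axis, with isoproterenol in red and vehicle in blue; points are arrays and black bars are group means. The groups are farthest apart at 3 h, where the isoproterenol mean is 10.42 and the vehicle mean is 7.66, and vehicle arrays are highest at 1 h.

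The effect itself differed between times. The isoproterenol effect on Sgk1 at 3 h exceeded that at 1 h by 2.01 ± 0.33 (limma adjusted p = 0.00203), where 0.391% of all probe sets passed with a higher effect. The effect at 24 h was below that at 3 h, with a difference of -2.16 ± 0.33 (limma adjusted p = 0.000124), where 3.2% of all probe sets passed with a lower effect. No other of the 7 probe sets passed in either test, and between 72 and 24 h none passed, where limma gave 2 of the 7 an unadjusted p under 0.05.

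Both arms entered the difference of effect between 3 and 1 h. Within isoproterenol hearts, a contrast chosen after the values were seen, Sgk1 differed by 0.43 ± 0.21 at 3 h against 1 h, which did not pass (limma adjusted p = 0.291). Within vehicle hearts it differed by -1.58 ± 0.25, which passed (limma adjusted p = 0.00626). Over 24 h against 3 h the order was the other way round. Isoproterenol hearts fell by 1.59 on the log2 scale (limma adjusted p = 3.70e-06), where 9.1% of all probe sets passed as lower, while vehicle hearts differed by 0.58 ± 0.25 (limma adjusted p = 0.311).

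Sgk1 was among the few probe sets that passed in tests between vehicle groups. It was chosen with earlier results of these data known, so its passing is a description and no independent test. Its vehicle means were 9.24, 7.66, 8.24 and 8.24 at 1, 3, 24 and 72 h, with SDs of 0.73, 0.29, 0.22 and 0.22 (n = 3 each). All 3 vehicle hearts at 3 h lay below all 3 at 1 h, and the 3 hearts at 24 h all lay above those at 3 h. The vehicle groups at 24 and 72 h overlapped. In the F test across the 4 vehicle groups Sgk1 had a limma adjusted p of 0.0289 and the fifth lowest p, and 24 probe sets, 0.0988% of those tested, passed. That count was 1128 with arrays weighted by quality and ran from 3 to 127 with each array left out. The largest difference between vehicle means was 2.98-fold.

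Of the 24292 probe sets, 3 passed for vehicle at 3 h against vehicle at 1 h, all lower, which is 0.0123%, while 2108 had an unadjusted p under 0.05. The 3 were Sgk1, chosen with earlier results of these data known, and Klf2 and Fos, named here after their values were seen. Klf2, a flow-responsive transcription factor of endothelium, had means of 9.53 at 3 h and 10.54 at 1 h, a change of -1.01 ± 0.16. Fos, an immediate early transcription factor, had means of 5.54 at 3 h and 8.56 at 1 h, a change of -3.03 ± 0.49. Both had the same limma adjusted p as Sgk1, 0.00626.

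The Sgk1 difference between vehicle at 3 h and vehicle at 1 h depended on single hearts. Without vehicle replicate 1 at 1 h it was -1.26 with a limma adjusted p of 0.163, and without replicate 2 it was -1.50 with an adjusted p of 0.0934. The F test then gave adjusted p-values of 0.151 and 0.112, and 0.0541 without vehicle replicate 1 at 3 h. Without normalization the difference was -1.95 with an adjusted p of 0.147 and the F test gave 0.272, and without the intensity trend the F test gave 0.0530. In each of these fits 3 h stayed below 1 h. Vehicle groups are numbered as arrays 4 to 6 at 1 h and 7 to 9 at 3 h, so time and array order cannot be told apart here.

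Because each isoproterenol group was set against the vehicle of its own time, the vehicle level entered the effect. Against the mean of the 4 vehicle groups, an alternative chosen after the data were seen, the Sgk1 effect was 1.65 at 1 h (limma adjusted p = 6.20e-09) and 0.49 at 24 h (limma adjusted p = 0.0446). Both passed there and not against the vehicle of their own time. The 3 h effect also passed against that mean, at 2.08 in place of the 2.76 found against the 3 h vehicle.

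The genes whose pattern was most like Sgk1 were found by Pearson correlation of normalized values against 12440 genes. Over the 12 vehicle arrays, which share group means, they were Klf2 (r = 0.926), Rgs1, a regulator of G protein signalling (r = 0.921), and Dusp1, a phosphatase that switches off MAP kinases (r = 0.877). Klf2 had 9.52, 9.55 and 9.51 in vehicle hearts at 3 h, against 10.76, 10.77 and 10.09 at 1 h. Dusp1 had 9.39, 9.53 and 9.58 at 3 h, against 10.88, 10.45 and 10.41 at 1 h, a change of -1.08 ± 0.24 that did not pass (limma adjusted p = 0.138). Neither gene's groups overlapped. Rgs1 differed by -0.90 ± 0.32 (limma adjusted p = 0.434), with all vehicle group means under the filter level of 5.29. Over all 30 arrays, which also share the isoproterenol response, the most similar genes were Gadd45g (r = 0.880), a stress-inducible growth arrest gene, Tnfaip6 (r = 0.876), a hyaluronan-binding protein, and Coq10b (r = 0.875), a coenzyme Q-binding protein.

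**Figure D2:**
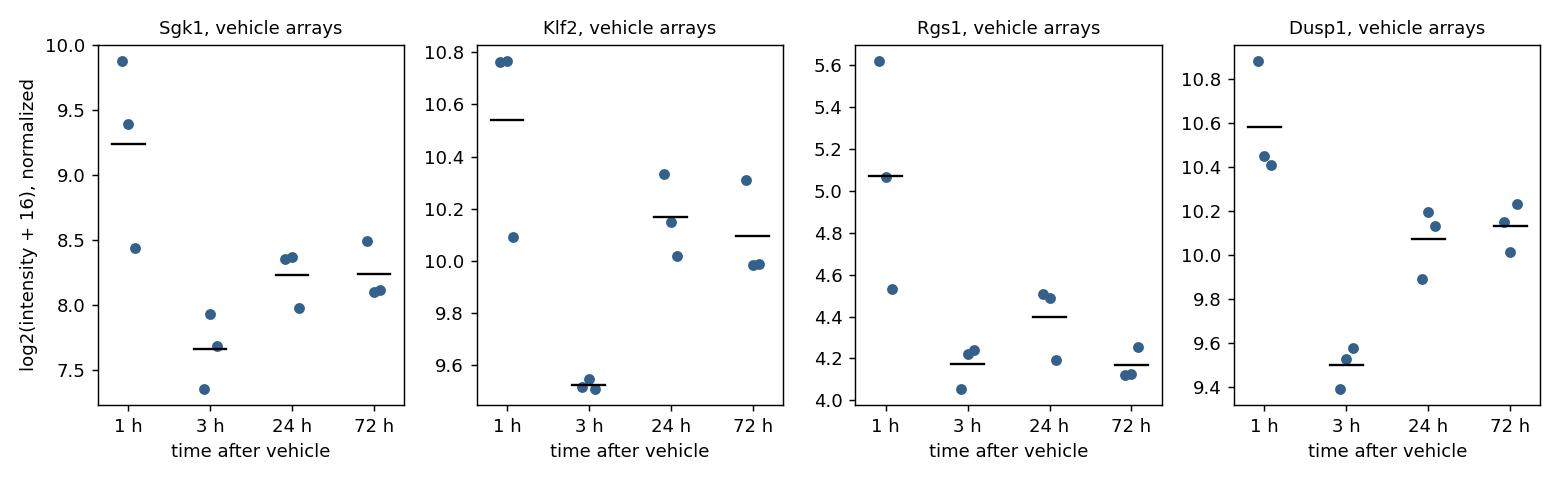
Vehicle arrays only, with time after vehicle on the x axis and log2(intensity + 16) after normalization on the y axis, for Sgk1 and the 3 genes most correlated with it over these 12 arrays; points are arrays, bars are means of 3, and each panel has its own y range. In every panel the 3 h arrays lie below the 1 h arrays, and the 1 h arrays of Sgk1 spread from 8.44 to 9.88.

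Fkbp5, the receptor's inhibitory immunophilin, rose at 3 h on both of its probe sets. On 1388901_at the values were 8.34, 8.95, 8.29 and 8.54 in isoproterenol hearts, against 7.83, 7.61 and 7.88 in vehicle hearts. The isoproterenol hearts all lay above the vehicle hearts. The change was 0.76 ± 0.20, 1.69-fold higher (limma adjusted p = 0.00916). It was 0.68 with an adjusted p of 0.0575 without vehicle replicate 2, and 0.66 with an adjusted p of 0.507 without normalization.

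On 1380611_at the 3 h values were 7.74, 7.82, 6.23 and 7.92 in isoproterenol hearts, against 6.32, 5.68 and 5.24 in vehicle hearts. The lowest vehicle value lay under the filter level of 5.29. Isoproterenol replicate 3 was low and lay among the vehicle hearts, while the other 3 stood apart from them. The change was 1.68 ± 0.33, 3.20-fold higher (limma adjusted p = 0.000659), and it was between 1.44 and 2.08 when any 1 array of either group was left out. That replicate was also the lowest of the 4 on the other probe set, at 8.29, but there it lay close to the 8.34 of replicate 1.

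At 24 h the 2 Fkbp5 probe sets differed in whether they passed. On 1380611_at the values were 6.61, 6.95, 6.78 and 6.81 in isoproterenol hearts, against 4.48, 5.72 and 5.86 in vehicle hearts. The groups did not overlap, and the lowest vehicle heart was under the filter level. The change was 1.43 ± 0.33, 2.70-fold higher (limma adjusted p = 0.00381), and it was 0.99 with an adjusted p of 0.0608 without that vehicle heart, replicate 1. On 1388901_at the values were 7.76, 8.03, 7.92 and 7.91 in isoproterenol hearts, against 7.29, 7.65 and 7.71 in vehicle hearts. Again no values overlapped, but the change of 0.36 ± 0.20 did not pass (limma adjusted p = 0.26).

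Neither Fkbp5 probe set passed at 1 or 72 h. At 1 h the changes were 0.35 on 1380611_at and 0.18 on 1388901_at, with limma adjusted p-values of 0.73 and 0.778, and isoproterenol and vehicle hearts overlapped on both. Against the mean of the 4 vehicle groups they were 0.99 and 0.65, with adjusted p-values of 0.00472 and 0.00152. At 72 h the changes were -0.06 and -0.27, with limma adjusted p-values of 0.923 and 0.36. On 1388901_at the 72 h change was -0.44 with arrays weighted by quality and -0.61 against the mean of the 4 vehicle groups, with adjusted p-values of 0.0440 and 0.00112. Within isoproterenol hearts, 1388901_at fell by 0.63 on the log2 scale at 24 h against 3 h (limma adjusted p = 0.0128). From there it fell by a further 0.78 at 72 h against 24 h (limma adjusted p = 0.00368), where 2.84% of all probe sets passed as lower. On 1380611_at the step at 24 h against 3 h was -0.64 and did not pass (limma adjusted p = 0.141). Its step at 72 h against 24 h was -1.18 (limma adjusted p = 0.00998).

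Vehicle means of Fkbp5 were 8.20, 7.77, 7.55 and 7.39 at 1, 3, 24 and 72 h on 1388901_at, and 6.45, 5.75, 5.36 and 5.67 on 1380611_at. The F test across vehicle groups did not pass for either, with limma adjusted p-values of 0.219 and 0.4, although their unadjusted p-values were 0.00338 and 0.0303. With arrays weighted by quality 1388901_at passed (adjusted p = 0.0303).

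**Figure D3:**
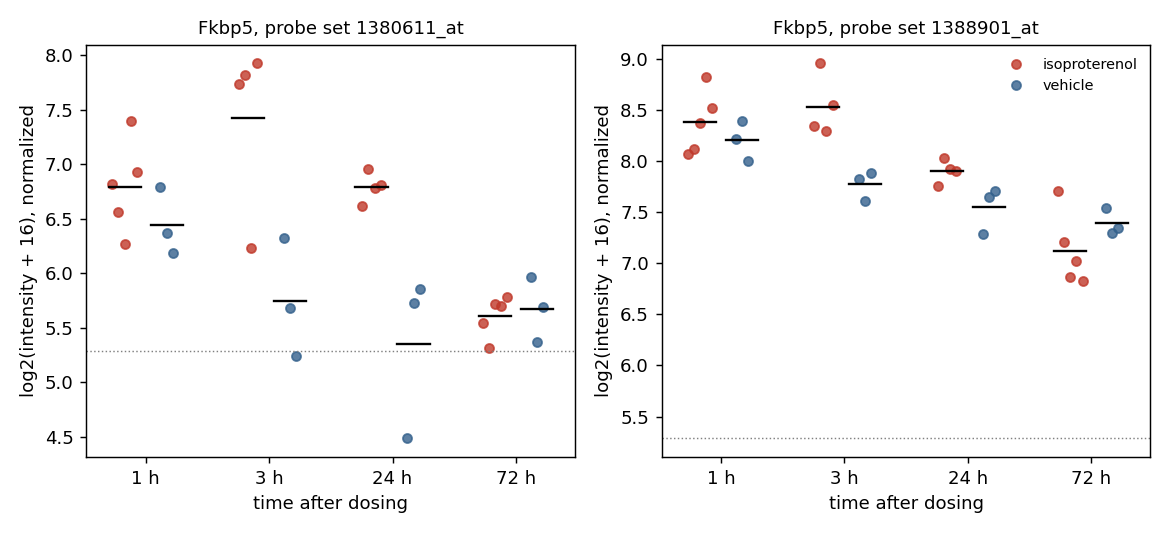
Fkbp5 in every array on its 2 probe sets, as log2(intensity + 16) after normalization against time after dosing, isoproterenol in red and vehicle in blue; points are arrays, bars are group means, and the dotted line is the filter level of 5.29. At 3 h 3 of 4 isoproterenol arrays of 1380611_at lie near 7.8 while replicate 3 lies at 6.23.

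The genes most like Fkbp5 over the 30 arrays, taken on 1388901_at, were Fam107a (r = 0.856), Ppp2ca (r = 0.852) and Pdk4 (r = 0.846). Fam107a encodes an actin-associated stress protein, Ppp2ca a catalytic subunit of protein phosphatase PP2A, and Pdk4 a kinase that shuts off pyruvate dehydrogenase. Pdk4 is itself a glucocorticoid target.

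Tsc22d3 did not pass at any time. At 3 h its values were 10.31, 9.88, 9.73 and 10.07 in isoproterenol hearts, against 10.03, 10.01 and 10.27 in vehicle hearts, with the vehicle values inside the isoproterenol range. The changes were -0.04, -0.11, 0.00 and 0.13 at 1, 3, 24 and 72 h, with standard errors of 0.17 to 0.18. Their 95% intervals ran from -0.39 to 0.30, -0.46 to 0.25, -0.36 to 0.36 and -0.21 to 0.47. After quantile normalization a 2-fold change in either direction thus lay outside each. Over 11 alternative settings the change ran from -0.11 to 0.56 at 24 h and from 0.0009 to 0.62 at 72 h, passing in 0 of them. At 24 h isoproterenol replicate 3 was high, at 11.03, beside 10.16, 9.93 and 10.25. Vehicle means were 10.41, 10.10, 10.34 and 10.12 at 1, 3, 24 and 72 h, with a limma adjusted p of 0.722 across them. The most similar genes over 30 arrays were Herpud1, of endoplasmic reticulum-associated degradation (r = 0.673), Erc1 (r = 0.670) and Gtf2i, a general transcription factor (r = 0.631).

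The related TSC22 genes passed at some times. Tsc22d1 rose at 3, 24 and 72 h, by 0.87 ± 0.15, 0.64 ± 0.15 and 0.57 ± 0.15. Tsc22d4 fell at 3 and 72 h, with changes of -0.57 ± 0.18 and -0.66 ± 0.18, and Tsc22d2 fell at 72 h with a change of -1.56 ± 0.25. Of these 3 genes, 0 passed at 1 h, 2 at 3 h, 1 at 24 h and 3 at 72 h. Among all tested probe sets 1.83% were higher and 0.815% lower at 1 h, and 6.11% and 5.28% at 3 h. At 24 h they were 7.33% and 5.7%, and at 72 h 9.37% and 8.56%. In limma 1 of the 3 genes had an unadjusted p under 0.05 at 1 h. Median centring left 1 higher at 3 h, 1 higher at 24 h, and 1 higher and 1 lower at 72 h, and without normalization 1 was higher at 24 h and 1 at 72 h.

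Nr3c1, the glucocorticoid receptor, was lower at 1 h without passing. On 1368221_at the values were 8.39, 8.83, 8.43, 8.46 and 8.94 in isoproterenol hearts, against 9.61, 9.16 and 9.27 in vehicle hearts. All 5 isoproterenol hearts lay below all 3 vehicle hearts. The change was -0.74 ± 0.23 with a limma adjusted p of 0.0821. The change passed under 2 of 11 alternatives. Its adjusted p was 0.00519 with arrays weighted by quality and 0.00708 when only the 2 groups were fitted. Over the 11 alternatives the adjusted p reached 0.350. With each array left out, 0 of 8 fits passed, with adjusted p-values of 0.0611 to 0.418. At 3, 24 and 72 h the changes were -0.17, 0.05 and 0.19, with limma adjusted p-values of 0.714, 0.923 and 0.624, and the groups overlapped each time.

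The other Nr3c1 probe set, 1368222_at, was dim. Its group means ran from 4.97 to 5.35 in isoproterenol hearts and from 4.81 to 5.31 in vehicle hearts, mostly under the filter level of 5.29. Its changes were -0.31, 0.16, 0.34 and -0.13 at the 4 times, with limma adjusted p-values of 0.517 to 0.81, and it had little signal with which to show a change. The genes most like Nr3c1 on 1368221_at were Btbd3 (r = 0.811), Tmem168 (r = 0.785) and Fcho2, of clathrin-mediated endocytosis (r = 0.781), over 30 arrays.

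Nr3c2, the mineralocorticoid receptor, fell at 24 h. Its values were 7.79, 7.21, 8.35 and 7.70 in isoproterenol hearts, against 8.57, 8.72 and 8.46 in vehicle hearts. All isoproterenol hearts lay below all vehicle hearts, with replicate 3 close to them. The means were 7.76 ± 0.47 and 8.58 ± 0.13 (SD, n = 4 and 3), a change of -0.82 ± 0.24, 1.76-fold lower (limma adjusted p = 0.02).

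This call depended on single arrays and on the scaling. Leaving out isoproterenol replicate 2 gave -0.63 with an adjusted p of 0.114, and leaving out isoproterenol replicate 4 gave -0.80 with 0.0505. Leaving out vehicle replicate 1 gave -0.82 with an adjusted p of 0.0537, and leaving out vehicle replicate 2 gave -0.75 with 0.0826. Arrays centred on their medians gave -0.68 (adjusted p = 0.077). Without normalization the change was -0.18 (adjusted p = 0.767), in a comparison where the median of all probe sets itself shifted by 0.47. Against the mean of the 4 vehicle groups it was -0.35 (adjusted p = 0.168).

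Vehicle hearts at 24 h were also the highest of the vehicle groups for Nr3c2, with vehicle means of 7.94, 7.81, 8.58 and 8.14 at 1, 3, 24 and 72 h. The F test across them did not pass (limma adjusted p = 0.384). Vehicle at 24 h exceeded vehicle at 3 h by 0.77 ± 0.25, without overlap and without passing (limma adjusted p = 0.187). At 72 h Nr3c2 was 8.27, 7.20, 7.15, 7.80 and 7.66 in isoproterenol hearts, against 8.20, 8.19 and 8.01 in vehicle hearts. The change of -0.52 ± 0.23 did not pass (limma adjusted p = 0.118), and without isoproterenol replicate 1, the only one above the vehicle hearts, it was -0.68 with an adjusted p of 0.0208. It also passed with arrays weighted by quality, at -0.54 (adjusted p = 0.0209), and against the mean of the 4 vehicle groups, at -0.50 (adjusted p = 0.0244). At 1 and 3 h the changes were 0.09 and -0.22, with adjusted p-values of 0.924 and 0.626. Against the mean of the 4 vehicle groups the 3 h change was -0.52 (adjusted p = 0.0384).

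Macrophage markers and an RNA quality measure moved at the time when Nr3c2 was lower and Fkbp5 on 1380611_at was higher. At 24 and 72 h, when 7.33% and 9.37% of all probe sets were higher, 8 and 9 of 10 macrophage markers rose. Their list mean ran from 7.85 to 9.33 in isoproterenol hearts and from 6.82 to 7.19 in vehicle hearts at 24 h, and from 7.38 to 9.20 against 6.59 to 6.99 at 72 h. The beta-actin 3′ minus 5′ control signal is a log2 measure of RNA shortening. At 24 h it was 0.87 ± 0.37 in isoproterenol hearts and 1.64 ± 0.24 in vehicle hearts (SD, n = 4 and 3). It differed the other way earlier, at 1.82 ± 0.21 against 1.53 ± 0.06 at 1 h (SD, n = 5 and 3). At 3 h it was 1.93 ± 0.15 in isoproterenol hearts and 1.36 ± 0.74 in vehicle hearts (SD, n = 4 and 3). That vehicle SD was the largest of the 8 groups. At 72 h the isoproterenol mean was lower by less than either SD. Of 7 cardiomyocyte markers 1 fell at 24 h, Ryr2, by 0.52 on the log2 scale, where 5.7% of all probe sets were lower. Median centring gave 3 lower at that time, and no normalization gave 0. The part of these markers and of RNA quality in the Nr3c2, Fkbp5 and Sgk1 results was not tested.

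The genes most like Nr3c2 over 30 arrays were Prox1, a homeodomain transcription factor (r = 0.879), Vezf1, a zinc finger factor of vessel development (r = 0.850), and Naa30, an N-terminal acetyltransferase (r = 0.846). All these likeness values are descriptions over arrays that share group means and normalization.

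**Figure D4:**
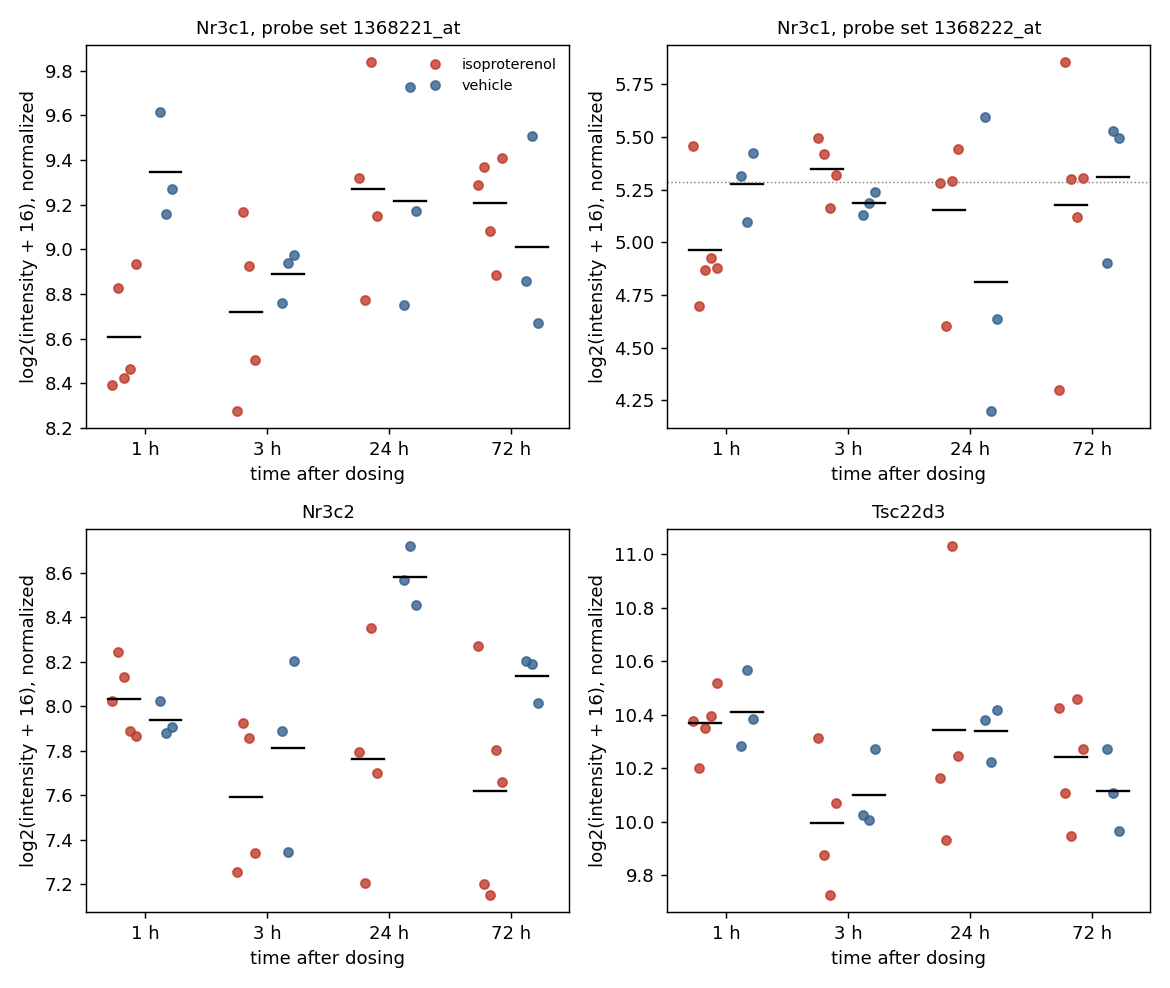
Both Nr3c1 probe sets, Nr3c2 and Tsc22d3 in every array, as log2(intensity + 16) after normalization against time after dosing, isoproterenol in red and vehicle in blue; points are arrays, bars are group means, each panel has its own y range, and the dotted line is the filter level of 5.29. Nr3c2 isoproterenol arrays lie below the vehicle arrays at 24 h, those of Nr3c1 on 1368221_at at 1 h, and Tsc22d3 groups overlap at all 4 times.

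A list of 30 other glucocorticoid target genes, each tested on its brightest probe set, was set beside these values. This list and the other gene lists were chosen with earlier results of these data known. Their counts beside the shares of all probe sets are therefore descriptions only. Of the 30 genes, 9 rose and 3 fell at 1 h, and 13 rose and 3 fell at 3 h. At 24 h 5 rose and 5 fell, and at 72 h 2 rose and 9 fell. Among all tested probe sets 1.83% were higher and 0.815% lower at 1 h, and 6.11% and 5.28% at 3 h. At 24 h they were 7.33% and 5.7%, and at 72 h 9.37% and 8.56%. The list's median changes were 0.40, 0.75, 0.17 and -0.24 in order of time, against -0.03, -0.05, -0.02 and -0.04 over all tested probe sets. Median centring gave the same counts at 1 and 3 h, 4 higher and 1 lower at 24 h, and 2 higher and 4 lower at 72 h. Without normalization 6 were higher and 2 lower at 1 h and again at 3 h, 8 higher and 0 lower at 24 h, and 2 higher and 0 lower at 72 h, so the late falls depended on the scaling. The list median at 72 h was then 0.23, beside 0.36 over all probe sets.

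Neutrophil markers moved with the early rise of the list, at times when 1.83% and 6.11% of all probe sets were higher. Of the 5 tested, 2 rose at 1 h, S100a9 by 1.42 ± 0.35 and Il1r2 by 1.34 ± 0.29, and 3 rose at 3 h. Their list mean at 1 h ran from 5.39 to 5.88 in isoproterenol hearts and from 4.67 to 5.08 in vehicle hearts. Their part in the target list's changes was not tested.

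Between vehicle groups 1 of the 30 passed in 1 step. Cdkn1a, a cell cycle inhibitor, was lower in vehicle hearts at 24 h, with a mean of 7.94, than in those at 3 h, with a mean of 9.27, a change of -1.33 ± 0.28 (limma adjusted p = 0.0408), where 0.0741% of all probe sets passed as lower. None of the 30 passed limma's F test across vehicle groups or its tests of vehicle at 3 h against 1 h and at 72 h against 24 h, while 9, 9 and 4 had an unadjusted p under 0.05. Many genes of this list also answer to cAMP, cytokines or fasting.

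Of the genes that rose early, these are examples. Irs2, an insulin receptor adaptor, rose by 2.89 ± 0.23 at 1 h, and Rgs2, a brake on G protein signalling, rose by 2.81 ± 0.27. Errfi1, which restrains EGF receptor signalling, rose by 2.76 ± 0.30 at 1 h and 2.95 ± 0.31 at 3 h. Angptl4, an inhibitor of lipoprotein lipase, rose by 4.01 ± 0.40 at 3 h, to a mean of 8.97 in isoproterenol hearts against 4.97 in vehicle hearts, which lies under the filter level. Mt2A, a metallothionein whose close relatives may share its probes, rose by 2.55 ± 0.46 at 1 h and 4.28 ± 0.48 at 3 h. Pdk4 rose by 1.20 at 1 h and 1.35 at 3 h and fell at 72 h with a change of -1.06. Per1, a clock gene and receptor target, rose by 1.89 at 1 h (limma adjusted p = 0.0393). Cdkn1a rose by 1.91 at 1 h and 1.15 at 3 h.

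Other targets fell after quantile normalization. Klf15, a transcription factor that glucocorticoids raise in heart, had a mean of 7.38 in isoproterenol hearts against 9.48 in vehicle hearts at 3 h, a change of -2.10 ± 0.24. It also fell at 1 and 72 h, with changes of -0.85 and -0.80. Fbxo32 and Trim63, ubiquitin ligases of muscle atrophy, fell at 72 h with changes of -1.24 ± 0.33 and -0.71. Fbxo32 had also fallen at 3 h with a change of -1.11, and Trim63 at 24 h with a change of -0.57. Foxo1, a transcription factor upstream of both, fell at 3 and 72 h with changes of -0.99 and -1.14. Lpin1, a phosphatidate phosphatase, fell by 0.93 on the log2 scale at 24 h and by 1.43 at 72 h. Sult1a1, a sulfotransferase, fell at 1 and 72 h with changes of -1.37 and -1.36.

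Anxa1, which encodes the anti-inflammatory annexin A1, rose late, by 1.21 ± 0.25 at 24 h and 1.67 ± 0.24 at 72 h. At 24 h Angptl4 and Mt2A were still higher, by 1.53 ± 0.40 and 1.46 ± 0.48. The vehicle mean of Angptl4 was then 4.99, under the filter level. Anxa1 is also abundant in myeloid cells, and its rise came at the times when 8 and 9 of 10 macrophage markers rose. Their part in it was not tested.

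**Figure D5:**
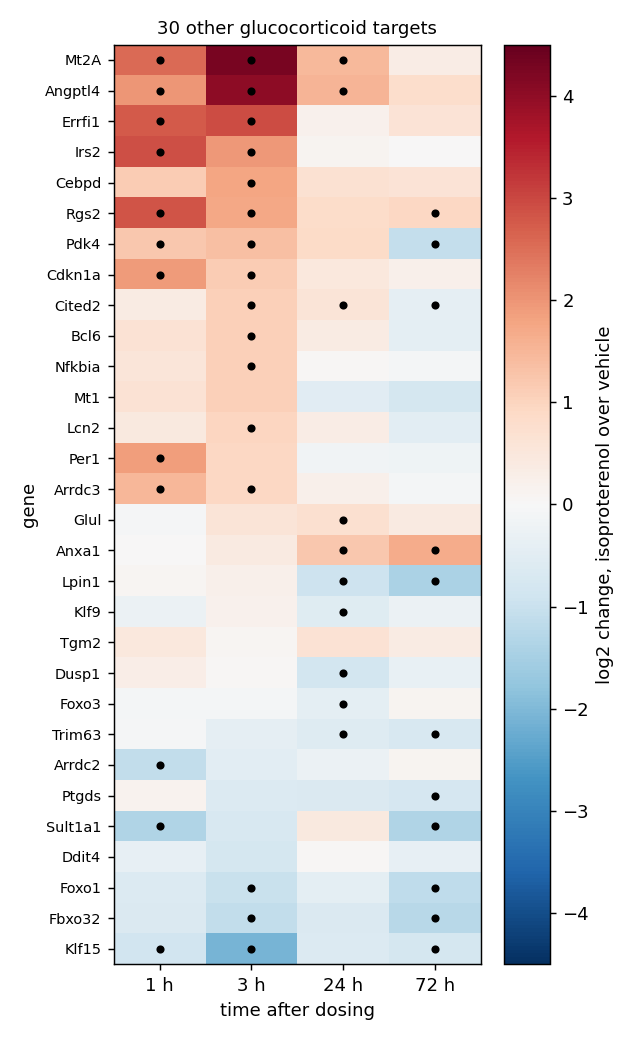
Log2 change, isoproterenol over vehicle, of 30 glucocorticoid target genes (rows, ordered by the change at 3 h) at 4 times after dosing (columns), with red for higher and blue for lower and a black dot where the limma adjusted p passed 0.05. After quantile normalization 13 genes rose and 3 fell at 3 h, and 2 rose and 9 fell at 72 h, where without normalization 2 were higher and 0 lower. The list was chosen with earlier results of these data known.

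Genes that fold, activate or assist the receptors formed a separate list. Of 14 tested on a list of chaperones, steroid enzymes and coregulators, 1 rose at 1 h, 1 rose at 3 h, 2 rose and 3 fell at 24 h, and 1 rose and 1 fell at 72 h. Over all tested probe sets 1.83% were higher and 0.815% lower at 1 h, and 6.11% and 5.28% at 3 h. These shares were 7.33% and 5.7% at 24 h, and 9.37% and 8.56% at 72 h. The list medians were -0.09, -0.03, -0.11 and -0.06. Median centring left 1 higher at 3 h, 1 lower at 24 h and 1 lower at 72 h, and without normalization 1 was higher, at 72 h. Hsp90ab1, a receptor chaperone, rose by 0.39 ± 0.09 at 1 h. Nrip1, a corepressor, rose by 0.67 ± 0.19 at 3 h and fell at 24 h with a change of -0.87 ± 0.19. Fkbp4, the FKBP52 immunophilin that favours receptor transport and opposes Fkbp5, fell at 24 and 72 h, with changes of -0.51 ± 0.17 and -0.96 ± 0.16. Ppid, another receptor immunophilin, rose by 0.50 ± 0.14 at 24 h, and Ncoa1, a coactivator, fell with a change of -0.50 ± 0.16. Hsd11b2, the enzyme that inactivates cortisol and corticosterone, rose by 0.93 ± 0.28 at 72 h, with means of 5.30 in isoproterenol hearts and 4.37 in vehicle hearts, close to and under the filter level.

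Of 8 tested relatives and partners of Sgk1, 1 rose at 1 h, none passed at 3 h, 1 rose and 1 fell at 24 h, and none passed at 72 h. Among all tested probe sets 1.83% were higher and 0.815% lower at 1 h, and 6.11% and 5.28% at 3 h. At 24 h they were 7.33% and 5.7%, and at 72 h 9.37% and 8.56%. For the 8 genes, median centring gave 1 higher at 1 h and 2 higher and 1 lower at 24 h. Without normalization 2 of them were higher, both at 24 h. In limma 3 of the 8 had an unadjusted p under 0.05 at 3 h, and likewise 3 at 72 h. Ndrg1, a phosphorylation substrate of SGK1, rose by 1.23 ± 0.17 at 1 h and by 0.76 ± 0.18 at 24 h. Ndrg2, a related substrate, fell at 24 h with a change of -0.63 ± 0.13. At 3 h, when Sgk1 itself was 6.77-fold higher, the median change of these 8 genes was 0.17.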

How the data were processed

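Total RNA of rat hearts, kept in RNAlater and extracted with an RNeasy kit per the labels' protocols, was hybridised as biotinylated cRNA to 1-colour Affymetrix RAT230_2 arrays. The authors deposited linear intensity values for each probe set and array, and the sources used here do not give how they summarised or scaled them. After 57 control probe sets were left out, log2(intensity + 16) values were quantile normalized, and the 24292 probe sets at or above an intensity of 23, the 40th percentile of all values, in at least 3 arrays were tested. limma 3.58.1 (R 4.3.3) fitted 8 groups with an intensity trend and 22 residual degrees of freedom, two-sided, with Benjamini-Hochberg adjustment within each contrast. Probe sets were named from GEO's platform annotation: 20826 had 1 gene, 436 several and 9780 none. The brightest probe set stood for a gene on a list, and the 4 largest passing changes per list and time were named, with further list genes added after their values were seen. On data simulated for the 3 h comparison (24292 probe sets), 52% of log2 changes of 1 and 98% of those of 2 were recovered. That simulation changed 100 probe sets of each size, with all others equal across groups and independent noise. In the data 2766 probe sets passed at 3 h, which makes the adjustment less strict, so these rates need not carry over. Replicate numbers recur in the labels, but same-numbered arrays did not deviate together (12 pairs, correlations from -0.07 to 0.12), so no block was used. Alternatives covered the pseudocount, scaling, filter, trend, array weights, a replicate block, the groups fitted, each array left out and a pooled vehicle. Members and lists were chosen with earlier results of these data known.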

Additional observations from a re-analysis of the deposited data

Results flagged for a closer look

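Fkbp5 on 1380611_at had 1 isoproterenol heart far below the others of its group at 3 h. Replicate 3 was at 6.23, and the nearest of the other 3 was at 7.74, so that the gap made up 0.889 of the range of the 4 hearts. Among the 28 groups checked this was the 1 that exceeded Dixon's 95% critical value, and chance exceeds it in about 1 in 20 groups.

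The isoproterenol effect on Sgk1 differed between times by a test of the difference itself. The effect at 3 h minus that at 1 h was 2.01 on the log2 scale, and the effect at 24 h minus that at 3 h was -2.16. These differences were not refitted for Sgk1 under the alternatives or with arrays left out. The vehicle step of -1.58 at 3 h against 1 h entered the 3 h minus 1 h difference. That step did not pass without vehicle replicate 1 or without vehicle replicate 2 at 1 h.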

How the results depend on the processing

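The Sgk1 and Fkbp5 1380611_at rises at 3 h passed under each of the 11 alternatives and with each array left out, and the Sgk1 change ran from 2.08 to 3.01 over the alternatives. The numbers of probe sets passing moved more, and the cause was not tested. With the main settings they were 643, 2766, 3165 and 4354 for isoproterenol against vehicle at 1, 3, 24 and 72 h. The effects differed in 141 at 3 against 1 h, 1649 at 24 against 3 h and 514 at 72 against 24 h. Vehicle groups differed in 3, 31 and 15 over the same steps and in 24 by the F test.

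Without normalization 190, 478 and 2380 passed at 1, 3 and 72 h, the effects differed in 5 at 3 against 1 h and 54 at 72 against 24 h, and vehicle groups differed in 1, 2 and 0 over the 3 steps and in 7 by the F test. Where the count was 0, limma gave 1213 an unadjusted p under 0.05. Array weights gave 1698, 5251 and 7208 at 1, 24 and 72 h, effect differences in 493, 2915 and 1983, vehicle differences in 136, 125 and 560, and 1128 by the F test. Fitting only the groups compared, where fewer arrays estimate the spread, gave 1313, 1331, 2104 and 2398 at the 4 times and effect differences in 246, 1022 and 133. The mean of the 4 vehicle groups, chosen after seeing the data, gave 1731, 4640 and 5500 at 1, 3 and 24 h. Median centring left 6 and 7 for vehicle at 24 against 3 h and 72 against 24 h, and 13 by the F test. No filter left 11 for vehicle at 24 against 3 h and 15 by the F test. No intensity trend left 15, 7 and 10 for those 2 steps and the F test. A pseudocount of 1 gave 7 for vehicle at 3 against 1 h, and 64 gave 23 at 72 against 24 h. The replicate block, whose numbers do not pair the arrays, left 17 for vehicle at 24 against 3 h and changed 0 of 56 calls on the member genes.

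With each array left out, the counts ran from 393 to 609, 1871 to 3028, 1581 to 4420 and 2421 to 5659 at 1, 3, 24 and 72 h. Effect differences ran from 65 to 200, 1019 to 2523 and 185 to 1113, vehicle differences from 0 to 10, 1 to 241 and 0 to 205, and the F test from 3 to 127. In the fits with a count of 0, limma gave 1430 to 2464 probe sets an unadjusted p under 0.05.

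Some changes that did not pass in either fit turned direction. Without normalization Fkbp5 was -0.082 at 1 h on 1388901_at, and at 72 h 0.30 there and 0.28 on 1380611_at. Nr3c2 was then -0.18 at 1 h and 0.10 at 72 h, Nr3c1 on 1368222_at 0.11 at 72 h, and Sgk1 -0.41 for vehicle at 72 against 24 h. Median centring gave -0.24 for the same Sgk1 step, -0.0048 for Nr3c2 at 1 h and 0.11 for Tsc22d3 at 3 h. Array weights gave -0.11 for Tsc22d3 at 24 h and 0.085 for Nr3c1 on 1368222_at at 72 h, and the replicate block gave -0.020 for Tsc22d3 at 24 h. Against the mean of the 4 vehicle groups Tsc22d3 was 0.13 and Nr3c2 -0.086 at 1 h, and Nr3c1 on 1368222_at was 0.030 at 72 h. Single arrays left out moved Tsc22d3 between -0.11 and 0.033 at 1 h and between -0.23 and 0.14 at 24 h. They moved Nr3c1 between -0.18 and 0.31 at 24 h on 1368221_at and between -0.34 and 0.086 at 72 h on 1368222_at, and Fkbp5 on 1380611_at between -0.22 and 0.080 at 72 h. For vehicle at 72 against 24 h the ranges were -0.12 to 0.073 for Sgk1, -0.12 to 0.57 for Fkbp5 on 1380611_at and -0.45 to 0.051 for Nr3c1 on 1368221_at. Fkbp5 on 1380611_at ran from -0.65 to 0.043 for vehicle at 24 against 3 h, and Nr3c2 from -0.32 to 0.11 for vehicle at 3 against 1 h. Signal over background limits Nr3c1 on 1368222_at, which lay near the filter level.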

Other observations

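Markers of other heart cell types gave these values in isoproterenol against vehicle hearts. For comparison, 1.83% of all tested probe sets were higher and 0.815% lower at 1 h, and 6.11% and 5.28% at 3 h. At 24 h these shares were 7.33% and 5.7%, and at 72 h 9.37% and 8.56%. Of 7 fibroblast markers 5 rose at 72 h, among them the collagen genes Col1a2 by 2.19 ± 0.31, Col1a1 by 1.82 ± 0.33 and Col3a1 by 1.09 ± 0.17, the proteoglycan gene Lum by 1.18 ± 0.20 and the growth factor receptor gene Pdgfra by 0.94 ± 0.20. Before that, Pdgfra fell at 1 h with a change of -1.09 ± 0.20, Tcf21, a fibroblast transcription factor, rose by 0.76 ± 0.21 at 3 h, and Dcn, the proteoglycan decorin, fell at 24 h with a change of -0.68 ± 0.14.

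Of 6 endothelial markers 1 rose at 1 h, 1 rose and 1 fell at 3 h, and 1 fell at each later time. Cldn5, a tight junction protein, rose by 1.64 ± 0.24 at 1 h and 1.10 ± 0.25 at 3 h. Tie1, an endothelial receptor kinase, fell at 3 and 72 h with changes of -1.28 ± 0.21 and -0.68 ± 0.20, and Kdr, a VEGF receptor, fell at 24 h with a change of -0.92 ± 0.19. Of 5 adipocyte markers, Fabp4 fell at 3 and 72 h, Lipe fell at 24 and 72 h, and Cfd rose at 72 h by 1.59 ± 0.32. Of 6 lymphocyte markers, Lck, a T cell kinase, passed alone, with changes of -0.69 ± 0.16 at 3 h and 0.52 ± 0.16 at 72 h. After median centring and without normalization the 72 h count of 5 fibroblast markers was the same, whereas without normalization 0 endothelial and 0 adipocyte markers were lower at 24 or 72 h. Under both of these scalings 0 fibroblast markers were higher and 0 adipocyte markers lower at 3 h. Without normalization 2 fibroblast markers were higher and 0 lower at 24 h. Likewise 0 endothelial markers were then higher at 1 or 3 h, and 0 lymphocyte markers were lower at 3 h.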
